A study of Mus musculus with 24 samples.

Results

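Calcium/calmodulin-dependent kinases (CaM kinases) were examined in the striatum of Huntington's disease mice through the 10 genes Camk1, Camk1d, Camk1g, Camk2a, Camk2b, Camk2d, Camk2g, Camk4, Camkk1 and Camkk2. They were taken by gene symbol from the 24340 genes listed in each of the 6 deposited tables, and all 10 were found in every table. The data are bulk RNA-seq of striatum from 24 male mice on a C57BL/6J background. WT-vehicle mice (5 samples) and WT-RGFP109 mice (6 samples) were wild type littermates, whereas R6/1-vehicle mice (6 samples) and R6/1-RGFP109 mice (7 samples) carried the R6/1 transgene hemizygously. This transgene is exon 1 of the human huntingtin gene with an expanded CAG repeat, driven by the human huntingtin promoter, so that it is not restricted to the striatum or to neurons, and the line models exon 1 of huntingtin rather than the whole protein. RGFP109, an inhibitor selective for histone deacetylases 1 and 3, was injected intraperitoneally at 30 mg/kg on 5 days per week for 3 weeks (23 days in total). Control mice of both genotypes received the vehicle on the same schedule. Injections began at an age of 11 to 14 weeks, and striatum was taken 18 h after the last of them, at 14 to 17 weeks.

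CaM kinases carry a calcium signal into protein phosphorylation. Calcium that enters a neuron binds calmodulin, and calcium-loaded calmodulin releases each kinase from its own autoinhibitory segment. CaMKII, assembled from subunits encoded by Camk2a, Camk2b, Camk2d and Camk2g, is highly abundant at excitatory synapses, where its autophosphorylation keeps it active after the calcium signal ends and where it phosphorylates glutamate receptors and scaffold proteins. CaMKI (Camk1, Camk1d, Camk1g and the related Pnck) and CaMKIV (Camk4) need a second step, phosphorylation of their activation loop by the CaM kinase kinases encoded by Camkk1 and Camkk2. CaMKIV is largely nuclear and phosphorylates the transcription factor CREB, and CaMKK2 also activates the energy sensor AMPK. In striatal projection neurons, which make up most neurons of the striatum, this cascade sits beside the dopamine and glutamate inputs on dendritic spines.

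The deposited tables give, for each pair of groups, 1 FPKM value per group (fragments scaled to transcript length and to library size), which is the authors' value over all mice of that group. Values of single mice were not analysed here, so the values below carry no error over mice and no p-value, and a ratio is a description of group values. Ratios were taken within the table made for that pair and are given as log2 of the first group over the second. A gene is counted as past the fold when this log2 ratio exceeded 0.5 in size, and the share of all genes past the same fold is the background for each count. Across tables, the values of 1 group differed by a common factor of at most 3.77% at the median gene, and a ratio reached by way of another group differed from the direct ratio by at most 0.0029 in log2 for the 10 genes. This measures the scaling of the tables and not the spread between mice.

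The expression of the CaM kinase genes spanned a wide range, with the CaMKII genes Camk2a and Camk2b far above the rest. In WT-vehicle striatum Camk2a, which encodes the alpha subunit of the forebrain CaMKII holoenzyme, had 617 FPKM and ranked 54 of 24340 genes. Camk2b, the beta subunit that also binds actin, followed with 407 FPKM at rank 108. All other genes of the group lay at 64.2 FPKM or below. Camkk2 had 64.2 FPKM (rank 1423), Camk2g 58.4 FPKM (rank 1575), Camkk1 52.2 FPKM (rank 1806) and Camk1 47.2 FPKM (rank 2029). Camk4 (28.9 FPKM, rank 3359) and Camk1d (28.3 FPKM, rank 3421) lay next to each other. Camk1g (21.6 FPKM, rank 4394) and Camk2d (19.1 FPKM, rank 4895) were the lowest. Since FPKM is per length, these levels can be set side by side, but without a spread over mice neighbours such as Camk4 and Camk1d cannot be put in a firm order. The 10 genes together had 1344 FPKM in WT-vehicle mice, of which 82.0% was CaMKII.

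**Figure D1:**
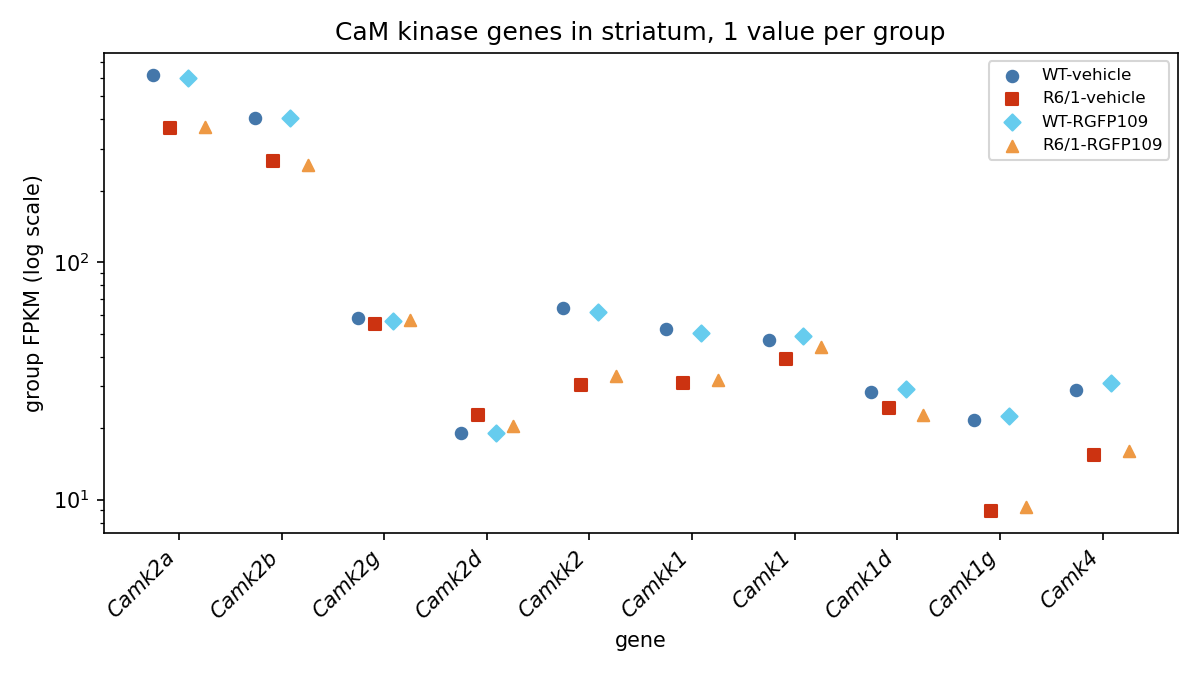
Group FPKM (log axis) of the 10 CaM kinase genes in the 4 groups, 1 authors' value per group with no error over mice. Camk2a and Camk2b lie between 258 and 617 FPKM, every other gene below 65 FPKM in these 4 groups, and for 6 genes both R6/1 groups lie well below both wild type groups.

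The reads of the 10 genes can be told apart from each other. Among all 51-base windows of their annotated transcripts (GENCODE M21), the length of 1 read, 0 were shared between any members of the group. Camk1 shared 2.19% of its windows with other genes, 135 of them with Ogg1, a DNA repair gene on the opposite strand whose exons overlap 232 exonic bases of Camk1. Camk4 shared 0.68%, Camk2a 0.266% and Camk2b 0.148%, and the other members 0. The library kit is not stated to keep strand, so reads from the overlap of Camk1 and Ogg1 cannot be assigned. In mm10 coordinates (start and end as in the deposited tables, 1-based), Camk2a lies at chr18:60925632-60988152 and Camk4 at chr18:32939041-33195767, both on the plus strand. Camk2b lies at chr11:5969666-6065748 (minus strand) and Camkk1 at chr11:73019008-73042065 (plus strand). Camk2d lies at chr3:126596951-126846326 (plus strand), and Camk2g at chr14:20734873-20794088 (minus strand). Camkk2 lies at chr5:122731170-122779410, Camk1 at chr6:113326976-113343922, Camk1d at chr2:5293457-5714762 and Camk1g at chr1:193346346-193370282, all on the minus strand. These are whole protein-coding genes, so each value sums over all exons of the gene's isoforms. The annotation lists 11 protein-coding transcripts for Camk2d, 10 for Camk2b, 9 for Camk2g and 6 for Camk2a, and a value per gene does not separate them.

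The first comparison asked how the CaM kinase genes stood in R6/1 striatum when no drug was given. In R6/1-vehicle mice 6 of the 10 genes were lower than in WT-vehicle mice past the fold and 0 were higher. Past this fold, 10.1% of all 13505 genes with a mean of at least 1 FPKM were lower and 3.47% were higher. The 6 genes were the upstream kinases Camkk1 and Camkk2, their targets Camk1g and Camk4, and the main CaMKII subunits Camk2a and Camk2b. Camk1 and Camk1d, also targets of the upstream kinases, and the CaMKII subunits Camk2d and Camk2g stayed inside the fold. The median log2 ratio of the 10 genes was -0.67, against -0.0077 over all genes. With the median of the pan-neuronal markers set to 0, which raised every ratio of this pair by 0.10, Camk2b came to -0.49 and 5 genes were past the fold. In bulk tissue, fewer cells of a type and less RNA per cell cannot be told apart.

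Both CaM kinase kinases were lower in R6/1-vehicle mice. Camkk2, whose product also phosphorylates AMPK, had 64.2 FPKM in WT-vehicle and 30.3 FPKM in R6/1-vehicle mice. This was 2.12-fold lower (log2 ratio -1.08), and 2.23% of genes had a lower ratio. Camkk1 had 52.2 and 31.0 FPKM in the same groups, 1.69-fold lower (-0.75), with 5.04% of genes lower still. Camkk1 stood below Camkk2 in WT-vehicle mice (0.813 FPKM of Camkk1 per FPKM of Camkk2) but level with it in R6/1-vehicle mice (1.02). Under RGFP109 this value was 0.813 in wild type and 0.966 in R6/1 mice, and the difference between genotypes was not tested.

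Among the targets of these kinases, Camk1g and Camk4 stood apart from Camk1 and Camk1d. Camk1g encodes CaMKI gamma, a membrane-anchored form linked to dendrite growth. It had 21.6 FPKM in WT-vehicle and 8.96 FPKM in R6/1-vehicle mice, 2.41-fold lower (log2 ratio -1.27), which was the lowest ratio of the 10 genes, with 1.44% of all genes lower. Camk4 had 28.9 and 15.4 FPKM, 1.88-fold lower (-0.91), with 3.41% of genes lower. Camk1, the widely expressed CaMKI alpha, had 47.2 and 39.2 FPKM (log2 ratio -0.27), and Camk1d, CaMKI delta, had 28.3 and 24.2 FPKM (-0.23). Both stayed inside the fold. As a result of these unequal ratios, the part of Camk1g in the summed FPKM of Camk1, Camk1d and Camk1g was 22.3% in WT-vehicle and 12.4% in R6/1-vehicle mice.

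Within CaMKII, the neuronal alpha and beta genes were lower past the fold in R6/1-vehicle mice, and the broadly expressed gamma and delta genes stayed inside it. Camk2a had 617 FPKM in WT-vehicle and 367 FPKM in R6/1-vehicle mice, 1.68-fold lower (log2 ratio -0.75). Camk2b had 407 and 268 FPKM, 1.51-fold lower (-0.60). This value lay just past the fold, and it is the member nearest to it. Camk2g had 58.4 and 55.2 FPKM (-0.083). Camk2d had 22.8 FPKM in R6/1-vehicle against 19.1 FPKM in WT-vehicle mice, 1.20-fold higher (0.26), a ratio exceeded by 14.4% of all genes. No other member was higher in this pair as deposited, but Camk2g came to 0.021 with the pan-neuronal median set to 0.

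The alpha and beta genes make up nearly all CaMKII transcript, so the summed CaMKII level followed them. The 4 CaMKII genes summed to 1101 FPKM in WT-vehicle mice and 713 FPKM in R6/1-vehicle mice. The RGFP109 groups summed to 1082 FPKM (wild type) and 708 FPKM (R6/1). Camk2a held 56.0% of the sum in WT-vehicle and 51.4% in R6/1-vehicle mice, and Camk2b held 36.9% and 37.6%. The part of Camk2g was 5.31% in WT-vehicle and 7.74% in R6/1-vehicle mice. That of Camk2d was 1.73% and 3.20%. Camk2a stood at 1.52 FPKM per FPKM of Camk2b in WT-vehicle and at 1.37 in R6/1-vehicle mice. Under RGFP109 this value was 1.47 in wild type and 1.45 in R6/1 mice, closer to each other than in the vehicle pair, with no test of that difference.

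**Figure D2:**
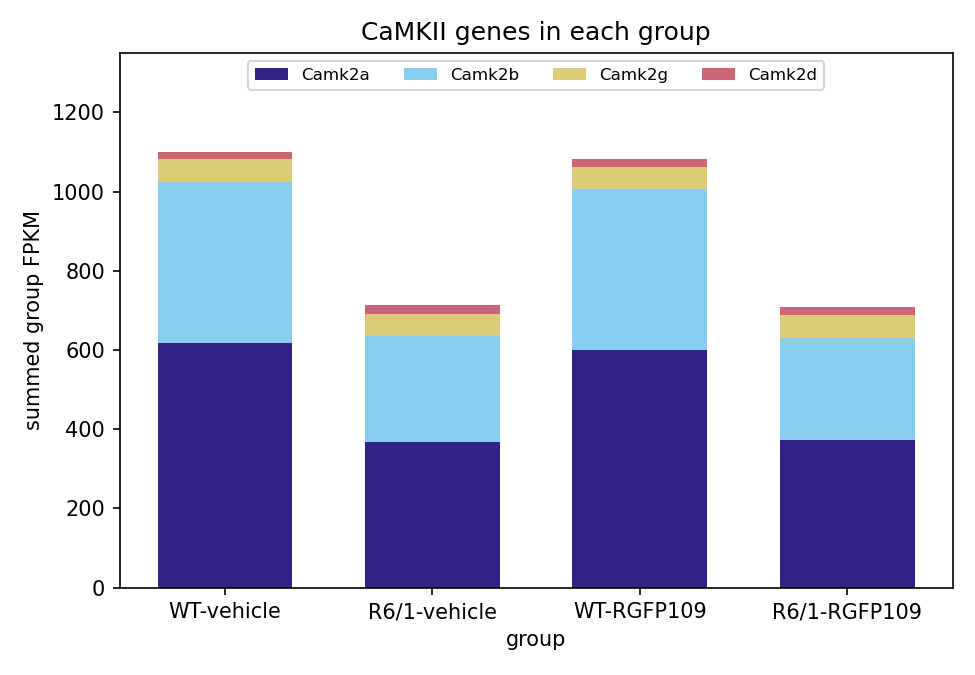
Summed group FPKM (y axis from 0) of the 4 CaMKII genes, stacked, in the 4 groups. The sums are 1101 (WT-vehicle), 713 (R6/1-vehicle), 1082 (WT-RGFP109) and 708 (R6/1-RGFP109), and Camk2a and Camk2b fill most of each column.

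The comparison of the treated genotypes uses other mice than the comparison above, so that it gives the genotype ratio a further time. In R6/1-RGFP109 against WT-RGFP109 mice, 6 of the 10 genes were again lower past the fold and 0 were higher, where 8.46% of all 13478 genes were lower and 3% higher. The genes were Camk1g, Camk4, Camkk2, Camk2a, Camk2b and Camkk1, which are the ones named for vehicle. With the pan-neuronal median set to 0, which raised every ratio of this pair by 0.20, the count was 3, since Camk2a (-0.48), Camk2b (-0.46) and Camkk1 (-0.45) came inside the fold. Camk1g had 22.6 FPKM in WT-RGFP109 and 9.34 FPKM in R6/1-RGFP109 mice, 2.42-fold lower, and its log2 ratio of -1.27 equalled that with vehicle at this precision. Camk4 had 31.0 and 16.0 FPKM (-0.96). Camkk2 had 61.8 and 33.1 FPKM (-0.90), and Camkk1 50.2 and 32.0 FPKM (-0.65).

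For the CaMKII genes the treated pair gave 599 and 373 FPKM of Camk2a (log2 ratio -0.68) and 407 and 258 FPKM of Camk2b (-0.66). Camk2g was level at 56.9 FPKM in both genotypes (0.0018), and Camk2d had 19.0 FPKM in WT-RGFP109 and 20.4 FPKM in R6/1-RGFP109 mice (0.10). Camk1 had 48.8 and 43.8 FPKM (-0.16), and Camk1d 29.3 and 22.7 FPKM (-0.37). The median over the 10 genes was -0.65, against 0.010 over all genes. For each of the 6 genes past the fold, the higher of the 2 R6/1 values lay below the lower of the 2 wild type values. Since these 6 were picked by their ratios in both pairs, this adds little to those ratios.

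**Figure D3:**
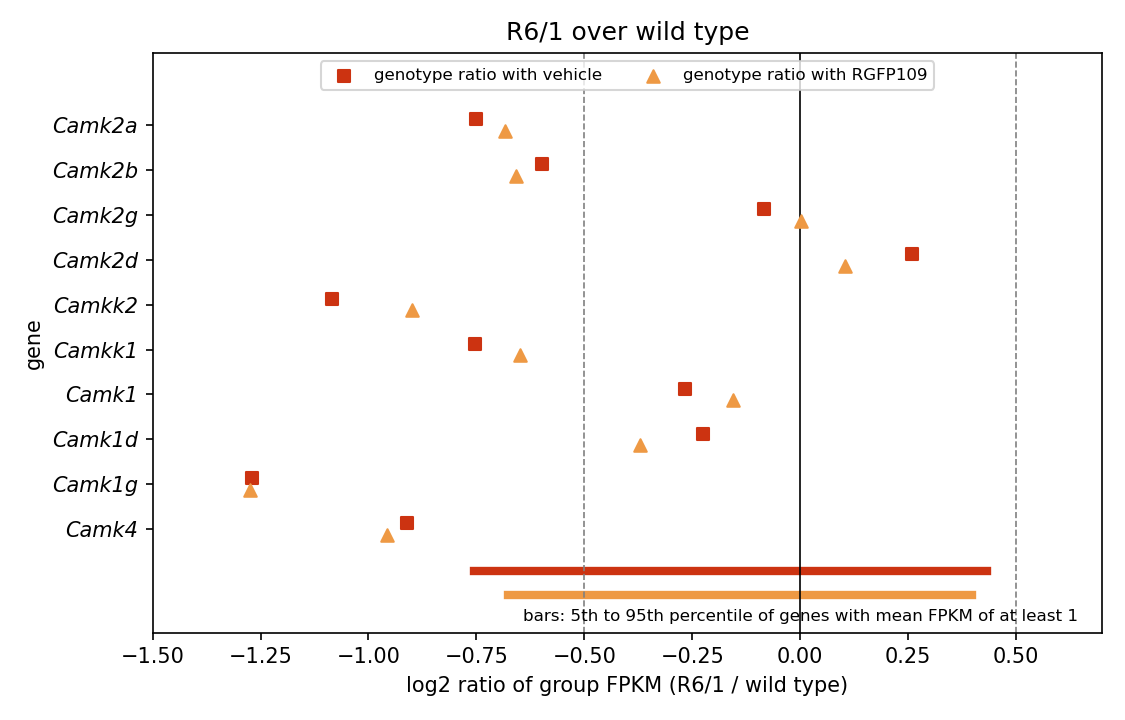
Log2 ratio of group FPKM, R6/1 over wild type, for the 10 genes with vehicle (squares) and with RGFP109 (triangles); dashed lines mark the fold of 0.5 in each direction and the bars the 5th to 95th percentile of all genes with a mean of at least 1 FPKM. Camk1g, Camkk2 and Camk4 lie between -1.27 and -0.90 in both pairs, and Camk2g and Camk2d lie between -0.083 and 0.26.

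Treatment with RGFP109 was then set against vehicle within each genotype. In R6/1 mice 0 of the 10 genes differed past the fold in either direction, where 1.05% of all 13461 genes were lower and 0.936% higher. The log2 ratios of R6/1-RGFP109 over R6/1-vehicle ran from -0.17 (Camk2d, 23.7 FPKM with vehicle and 21.0 FPKM with RGFP109) to 0.15 (Camk1, 40.6 and 45.1 FPKM). Camkk2 had 31.4 FPKM with vehicle and 34.1 FPKM with RGFP109 (0.12), and 9.14% of all genes had a higher ratio. The ratio of Camk1d was -0.10 and that of Camk2b -0.065. The other members, Camk1g (0.053), Camk4 (0.047), Camkk1 (0.041), Camk2g (0.038) and Camk2a (0.017), lay nearer to 0, and the median of all 10 was 0.040 against 0.0031 over all genes.

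In wild type mice, likewise, 0 of the 10 genes differed past the fold between WT-RGFP109 and WT-vehicle, where 1.83% of all 13464 genes were lower and 1.04% higher. The log2 ratios ran from -0.062 (Camkk2, 62.0 FPKM with vehicle and 59.4 FPKM with RGFP109) to 0.096 (Camk4, 27.9 and 29.8 FPKM), with a median of -0.0062. Camk2a had 596 FPKM with vehicle and 576 FPKM with RGFP109 (-0.049), and Camk2b 393 and 392 FPKM (-0.0028). All 10 genes lay inside the 5th to 95th percentile of all genes, -0.28 to 0.21, as they did in R6/1 mice, where that range was -0.19 to 0.18.

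The treatment ratio of largest size was -0.17, for Camk2d in R6/1 mice. The members inside the fold with vehicle had genotype ratios of -0.27 (Camk1), -0.23 (Camk1d), -0.083 (Camk2g) and 0.26 (Camk2d). The treatment ratio in R6/1 minus that in wild type was largest for Camkk2 (0.18), and 20.7% of 13164 genes had a larger difference in either direction. It was -0.16 for Camk2d, with 25.5% of genes larger, and -0.15 for Camk1d, with 28.4% larger. For Camk1g it was -0.0062. These differences were not tested.

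**Figure D4:**
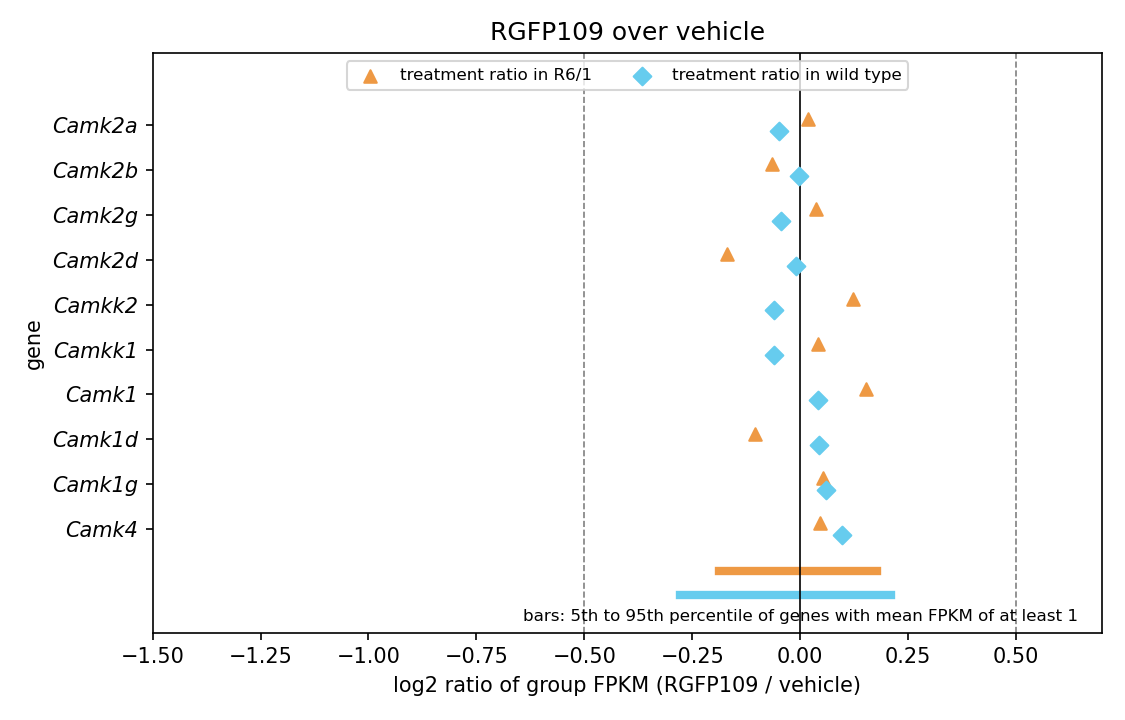
Log2 ratio of group FPKM, RGFP109 over vehicle, for the 10 genes in R6/1 mice (triangles) and in wild type mice (diamonds), on the same axis as the genotype ratios; dashed lines mark the fold of 0.5 and the bars the 5th to 95th percentile of all genes with a mean of at least 1 FPKM. Every point lies between -0.17 and 0.15.

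Treated R6/1 mice were also set against WT-vehicle mice, a pair that shares its wild type mice with the first comparison and its R6/1 mice with the second. Here 6 genes were lower past the fold and 0 were higher, where 10% of all 13493 genes were lower and 3.26% higher. Camk1g had 21.7 FPKM in WT-vehicle and 9.33 FPKM in R6/1-RGFP109 mice (log2 ratio -1.22), Camkk2 64.4 and 33.1 FPKM (-0.96) and Camk4 29.0 and 15.9 FPKM (-0.86). The ratio was -0.73 for Camk2a, -0.71 for Camkk1 and -0.66 for Camk2b. Camk1d (-0.33), Camk1 (-0.11), Camk2g (-0.043) and Camk2d (0.093) stayed inside the fold.

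The promoters of the genes were then read to see what the members with low ratios share in sequence. RefSeq promoters (GRCm38.p6) were read for 7 of the 10 genes, namely Camk1, Camk1d (2 promoters), Camk1g, Camk2b, Camk2d, Camkk1 and Camkk2. The 250 bases before each start site were searched. Promoters of Camk2a, Camk2g and Camk4 were not read, and their absence here does not mean that these genes lack a RefSeq promoter. The 3 shown, with every CpG in capitals, are those of the pair with the lowest genotype ratios among these 7, Camk1g (chr1:193370283-193370532, minus strand) and Camkk2 (chr5:122779411-122779660, minus strand), and of Camk2d (chr3:126596701-126596950, plus strand), a member that was higher in R6/1-vehicle mice.
Camk1g: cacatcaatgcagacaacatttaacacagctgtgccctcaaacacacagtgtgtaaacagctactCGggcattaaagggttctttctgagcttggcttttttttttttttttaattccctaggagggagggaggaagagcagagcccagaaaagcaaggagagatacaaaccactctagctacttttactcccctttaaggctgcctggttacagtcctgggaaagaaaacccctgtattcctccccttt
Camkk2: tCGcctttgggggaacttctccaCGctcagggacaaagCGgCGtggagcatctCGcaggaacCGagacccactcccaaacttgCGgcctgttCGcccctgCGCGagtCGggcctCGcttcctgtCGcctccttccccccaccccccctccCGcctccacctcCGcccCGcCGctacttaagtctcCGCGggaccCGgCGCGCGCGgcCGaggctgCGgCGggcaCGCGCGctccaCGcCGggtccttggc
Camk2d: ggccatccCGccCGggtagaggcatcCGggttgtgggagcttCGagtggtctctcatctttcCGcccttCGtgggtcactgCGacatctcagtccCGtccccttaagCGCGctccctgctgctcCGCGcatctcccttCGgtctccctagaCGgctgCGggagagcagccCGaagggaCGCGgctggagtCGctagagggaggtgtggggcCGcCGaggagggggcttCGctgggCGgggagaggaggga

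The CpG content did not sort these 7 genes by their ratio. Camk1g held 1 CpG, and 7.87% of 32851 RefSeq promoters held fewer, whereas Camkk2 held 32 (95.4% fewer) and Camk2d 23 (86.7% fewer). The median promoter held 6. Camk2b held 44 CpGs, Camkk1 29, Camk1 11, and the promoters of Camk1d 22 and 5. The full cAMP response element TGACGTCA, the site of the CaMKIV substrate CREB, was in 0 of the 7 genes and in 1.55% of all promoters of this length. Its shorter form TGACG, which is part of the full element, was present on either strand in 2 of the 7 genes, beginning at position -185 from the start site in Camk1 and at -166 in Camkk1, and in 17.8% of all promoters. A match is a string of letters and no proof of binding, and the absence of one from this window says nothing of the factor.

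Genes that act around the kinases were read from lists of the pathway. In the vehicle pair 10.1% of all genes were lower past the fold and 3.47% higher, which is the background for the vehicle counts of these lists. The list of calmodulin-binding buffer proteins holds small proteins that bind calmodulin at rest, and also the Pcp4 relative Pcp4l1, whose binding was not examined here. This list had 3 of 4 genes lower past the fold in R6/1-vehicle against WT-vehicle mice. Pcp4 (PEP-19) had 1848 and 689 FPKM (-1.42), Nrgn (neurogranin) 1081 and 556 FPKM (-0.96), and Pcp4l1 293 and 199 FPKM (-0.56). The fourth, Gap43, had 300 FPKM in WT-vehicle and 365 FPKM in R6/1-vehicle mice (0.28).

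Of the CaM kinase inhibitors and phosphatases, 1 of 4 genes was past the fold. Camk2n1, which encodes an inhibitor protein of CaMKII, had 490 FPKM in WT-vehicle and 180 FPKM in R6/1-vehicle mice (log2 ratio -1.44), lower than any of the 10 kinase genes. Its relative Camk2n2 had 56.0 and 66.8 FPKM (0.25). Camk2n1 thereby stood at 0.445 FPKM per FPKM of summed CaMKII in WT-vehicle and at 0.252 in R6/1-vehicle mice. The RGFP109 groups gave 0.459 in wild type and 0.271 in R6/1 mice.

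Most other kinases of the CaM kinase group were inside the fold. Of 14 listed genes 12 reached a mean of 1 FPKM, and 2 of these were lower. Camkv, a kinase-like protein without activity, had 416 and 236 FPKM (-0.82), and Dclk1, a microtubule-associated kinase, had 128 and 80.4 FPKM (-0.67). Pnck, which encodes CaMKI beta, had 73.5 FPKM in WT-vehicle and 78.7 FPKM in R6/1-vehicle mice (0.098). In the RGFP109 pair Phkg1, a subunit of phosphorylase kinase, was past the fold as well (-0.57), making 3 of 12, where 8.46% of all genes were lower.

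Of calcineurin, the calcium-activated phosphatase that opposes the kinases, and its regulators, 1 of 7 genes was past the fold in the vehicle pair. The catalytic subunit Ppp3ca had 351 and 208 FPKM (log2 ratio -0.75), and the regulatory subunit Ppp3r1 292 and 216 FPKM (-0.43). Rcan3, of the regulators, had 14.0 and 19.4 FPKM (0.47), inside the fold and above the 95th percentile of all genes (0.43). Synaptic substrates and partners of CaMKII had 3 of 11 genes lower. Actn2, an alpha-actinin of the spine, had 32.9 and 14.7 FPKM (-1.16), the scaffold gene Shank3 54.2 and 27.0 FPKM (-1.0), and Dlg4, which encodes PSD-95, 306 and 197 FPKM (-0.64). The list as a whole had a median of -0.14.

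Downstream of the cascade, 0 of 8 genes for CREB, its CRTC partners and coactivators were past the fold (median log2 ratio 0.079). Crtc1 had 49.9 FPKM in WT-vehicle and 39.3 FPKM in R6/1-vehicle mice (-0.34), and Crtc2 lay at 0.10. The coactivator genes Crebbp (0.49) and Ep300 (0.47) lay just inside the fold, above the 95th percentile of all genes (0.43). In the RGFP109 pair they lay at 0.44 and 0.37, where that percentile was 0.40. Of the AMPK subunits and the other AMPK kinase LKB1, 0 of the 7 listed genes that reached a mean of 1 FPKM (of 8) were past the fold, with Prkag1 at -0.085 and Prkag2 at -0.30. The log2 ratios of these 7 genes lay on both sides of 0, from -0.30 to 0.29, with a median of -0.057. With RGFP109 against vehicle, 0 genes of these 7 lists with a mean of at least 1 FPKM were past the fold in either genotype. Of all genes, 1.05% were lower and 0.936% higher in R6/1 mice, and 1.83% lower and 1.04% higher in wild type mice. With shares this low, a count of 0 in lists of this size says little about the drug.

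**Figure D5:**
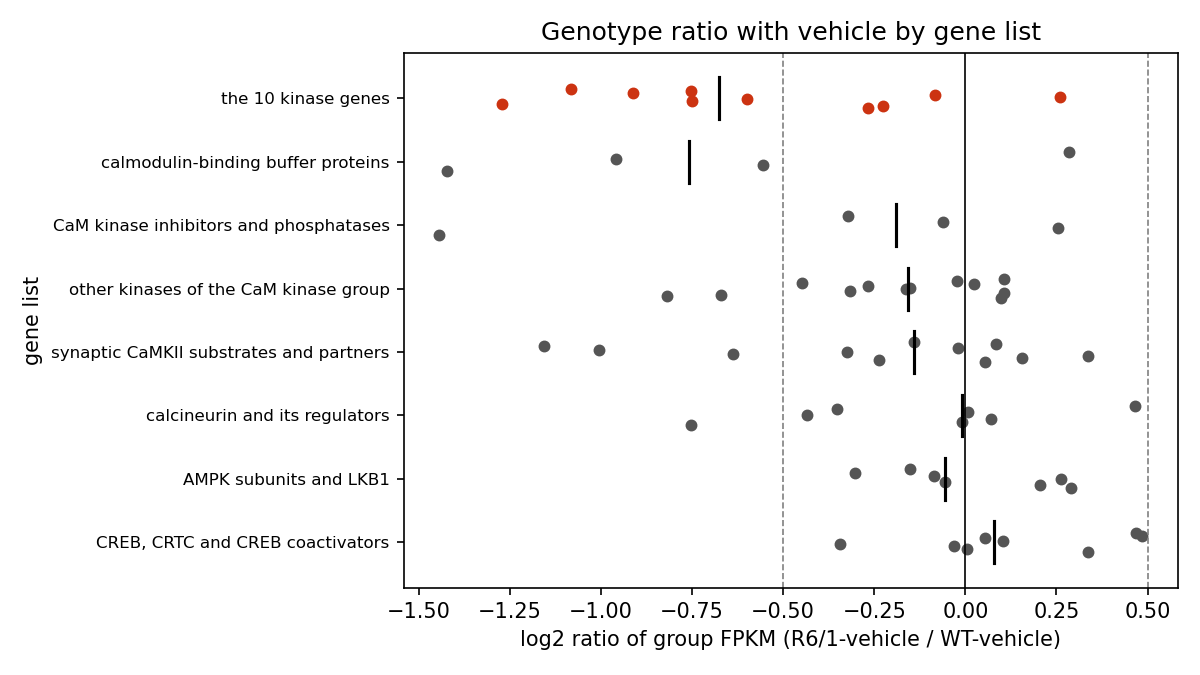
Log2 ratio of group FPKM, R6/1-vehicle over WT-vehicle, with 1 point per gene with a mean of at least 1 FPKM for the 10 kinase genes (top row) and 7 pathway lists; short vertical lines are list medians and dashed lines the fold of 0.5. The kinase genes (median -0.67) and the calmodulin-binding buffer proteins reach far to the left, and the CREB and AMPK lists stay between the dashed lines.

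Cell type markers were read beside these ratios, since several cell types express CaM kinases. As background for the marker counts, 10.1% of all genes were lower past the fold with vehicle and 8.46% with RGFP109. The sample is striatum by its label, and its projection neuron markers were abundant, with a summed 3364 FPKM of 10 genes in WT-vehicle mice and 1304 FPKM in R6/1-vehicle mice. Of these, 8 of 10 were lower past the fold with vehicle (median log2 ratio -1.31) and 8 of 10 with RGFP109 (median -1.36). Of 10 pan-neuronal markers, 0 were past the fold in either pair (medians -0.10 and -0.20). Neocortical projection neurons, in which Camk2a and Camk4 are also abundant, gave 6 of 8 markers lower with vehicle (median -0.70, summed 471 and 277 FPKM) but 2 of 8 with RGFP109 (median -0.19, summed 451 and 323 FPKM). Oligodendrocyte markers had 4 of 6 lower with vehicle (median -0.67, summed 4674 and 2618 FPKM) and 0 of 6 with RGFP109 (median -0.18, summed 3651 and 2956 FPKM). Between the vehicle and the RGFP109 pair, the log2 ratio went from -1.08 to -0.90 for Camkk2, from -0.75 to -0.65 for Camkk1 and from -0.75 to -0.68 for Camk2a. It went from -0.60 to -0.66 for Camk2b and from -0.91 to -0.96 for Camk4, and was -1.27 in both for Camk1g. The defining marker Slc17a7 of neocortical neurons was present in all groups, at 297 FPKM in WT-vehicle and 161 FPKM in R6/1-vehicle mice. The part of striatal projection neurons, of neocortical tissue and of oligodendrocytes in the ratios of the 6 genes was not tested.

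Other markers were lower in level or differed less. Of astrocyte markers, 1 of 6 was lower with vehicle and 2 of 6 with RGFP109 (medians -0.36 and -0.43), and of microglia markers 0 of 6 in both (-0.28 and -0.27). Endothelial markers had 1 of 5 lower in each pair. Of all genes, 10.1% were lower with vehicle and 8.46% with RGFP109, so a count of 1 in a list this short lies near the background. Choroid plexus markers summed to 40.9 FPKM in WT-vehicle and 23.4 FPKM in R6/1-vehicle mice, 4 of 5 being lower. They were also lower with RGFP109 than with vehicle, with list medians of -2.31 in R6/1 (4 of the 4 genes that reached a mean of 1 FPKM) and -2.00 in wild type mice (5 of 5). Of all genes, 1.05% were lower past the fold with RGFP109 in R6/1 and 1.83% in wild type mice. The thalamic list summed to below 20 FPKM in each of these groups. In R6/1 mice the neocortical markers were higher with RGFP109 (3 of 8 past the fold, median 0.37), where 0.936% of all genes were higher. In this pair Camkk2 and Camk1 had ratios of 0.12 and 0.15, and the part of the neocortical markers in those 2 ratios was not tested.

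The genes whose pattern over the 4 groups was most like that of a member were found by the distance between log2 values centred on their mean, over 4 group values and 7466 genes with a mean of at least 10 FPKM. For Camk2a the nearest was another member, Camkk1, at a distance of 0.024, followed by Wipf3 (0.028), Hes5 (0.035), Spry2 (0.036) and Mfge8 (0.039), where the median gene lay at 0.722. For Camk1g, the member with the lowest genotype ratio, the nearest were Ppp1r1a (0.088), Chrm4 (0.12), Gpr52 (0.13), the CaMKII inhibitor gene Camk2n1 (0.14) and Rasl10a (0.16), with the median gene at 1.27. With 4 values that fall into pairs by genotype, this likeness reads little more than the size of the genotype ratio.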

How the data were processed

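RNA-seq libraries of striatum (TruSeq kit, single-end reads of 51 bp, sequenced in pooled lanes) were aligned by the authors with STAR 2.5.0b to mm10, and the authors computed FPKM values with Cufflinks 2.2.1 and compared each pair of groups with Cuffdiff. The deposited tables hold 1 FPKM value per group and gene. Cuffdiff scales these values within a pair, so ratios here were taken within a table. Which library was sequenced in which pool is not given in the sources used here, and the depth is unknown from the files. The columns of the authors' own comparisons (log2 fold changes, test statistics, p-values, q-values and a significance flag) were not used.

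Groups came from the labels. The log2 ratio of the FPKM values was computed with no pseudocount (Python 3.11.15, pandas 2.3.3, numpy 2.4.6), and genes with a mean of at least 1 FPKM and no group at 0 formed the background; the script was tested on simulated data. The fold of 0.5 is the study's own. All 10 genes are named. Of each pathway list the genes past the fold with vehicle are named, and otherwise up to 2 of the highest mean FPKM. Slc17a7, Phkg1, Crebbp, Ep300 and Rcan3 fall outside this rule and were chosen after their values were seen. The genes and lists were chosen with earlier results of these data known. The result of 1 further pathway list is not reported here. Alternatives were another fold, pseudocounts, filters, centrings and ratios by way of another group.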

Additional observations from a re-analysis of the deposited data

How the results depend on the processing

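The count of CaM kinase genes past the fold was recomputed under 40 combinations of comparison and setting, and 36 stayed within 1.5 times the reported count. The 36 include both treatment comparisons, where the count was 0 in every setting, and settings that moved the ratios little. They are therefore no measure of robustness. At a log2 ratio above 1 in size, 2 genes remained past it in the vehicle pair, 1 in the RGFP109 pair and 1 between treated R6/1 and WT-vehicle mice, since fewer ratios reach this fold. With the median of the pan-neuronal markers set to 0, which raised the ratios of the RGFP109 pair by 0.20, the count there was 3, and 5 in the vehicle pair. That centring moved 30 of 50 ratios by 0.1 or more in log2 and changed the sign of 8. None of these 8 was past the fold, and they were Camk1 in the RGFP109 pair (0.048), in treated R6/1 against WT-vehicle mice (0.0030) and in treated against untreated wild type mice (-0.034), Camk2g in the vehicle pair (0.021) and in treated R6/1 against WT-vehicle mice (0.073), Camk2a in treated against untreated R6/1 mice (-0.016), and Camk1d (-0.034) and Camk1g (-0.017) in treated against untreated wild type mice. Setting the median of all genes to 0 changed the sign of 2 ratios near 0, Camk2g in the RGFP109 pair (-0.0085) and Camk2b in wild type mice (0.00025), and the former also with R6/1-vehicle as the group between (-0.00053). The other centring, the added constants and the ratios by way of another group each moved 0 ratios by as much, the largest shift being 0.087 with 1 FPKM added. No paired analysis was possible because the deposited tables, the only source of values here, give 1 value per group. Values of single mice were not used here, so leaving out 1 mouse at a time was not run. Depth is unknown, so no counting error can be given.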
